A study of Rattus norvegicus with 10 samples.

Results

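The 8 cathepsins Ctsb, Ctsc, Ctsd, Ctsh, Ctsk, Ctsl, Ctss and Ctsz and the lysosomal membrane proteins Lamp1 and Lamp2 were examined in rat liver after a treatment that scars the liver and gives tumours. They are read by 12 of the 41012 non-control probes of the array, and they are 10 of the 13826 genes that a probe names here. A probe was taken when its transcript accession matched one of these symbols in RefSeq. Ctsl and Ctss have 2 probes each and the other genes 1. The choice of genes used no measured value of these arrays, although it was made with earlier results of the series known.

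The animals were male Wistar rats, 5 in each group, with 1 array of whole liver RNA per rat. Control rats received vehicle only. DEN/TAA rats received 1 intraperitoneal injection of diethylnitrosamine, a DNA-alkylating liver carcinogen, at 200 mg/kg and 6 weeks of age. From 2 weeks later they were given thioacetamide, a toxin that hepatocytes activate, at 200 mg/kg and 2 injections a week, in cycles of 3 weeks with and 1 week without it, during 23 weeks. The labels give an age of 23 weeks for every rat, which such a course begun at 6 weeks would exceed, so the length of treatment is not settled here. No genotype other than the strain is given, and the samples are whole liver, not separated cells or dissected nodules.

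Cathepsins are proteases that work in the acid interior of lysosomes, where they break down proteins brought in by endocytosis and autophagy. Ctsb, Ctsc, Ctsh, Ctsk, Ctsl, Ctss and Ctsz are cysteine proteases of the papain family, and Ctsd is an aspartic protease. Lamp1 and Lamp2 are heavily glycosylated proteins that line the inner face of the lysosomal membrane. Hepatocytes are rich in lysosomes, and macrophages use lysosomal proteases, Ctss among them, to process antigens.

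The promoters of these genes differ in a way that the array does not read. Many lysosomal genes carry E-boxes, the letters CACGTG, which factors of the TFEB family can bind. They were searched on both strands, in which the motif reads the same, in the 250 bases before the start site in RefSeq's promoter table of the assembly GRCr8. Of the 10 genes, 9 matched that table, all except Ctsb. An E-box was found in 2 of them, 5 in Lamp1 and 2 in Ctsd, and in 5.593% of all 33469 promoters of the table. The promoter of Lamp1 was the only one in the table with 5 or more. All 7 E-boxes had a T before or an A after them, letters that flank CACGTG in the longer motif described for lysosomal genes. Either letter alone was counted, and the longer motif itself was not searched for. The share of other E-boxes with such a letter was not computed. The upstream sequences of Lamp1 (chr16:83075064-83075313, minus strand), Ctsd (chr1:206968822-206969071, minus strand) and Ctss (chr2:185775146-185775395, plus strand) are shown because these genes ended at different places in the comparison. E-boxes are in capitals for Lamp1 and Ctsd. In Ctss the capitals mark GAGGAA read on the other strand, a purine box that ETS factors such as PU.1 can bind.
Lamp1: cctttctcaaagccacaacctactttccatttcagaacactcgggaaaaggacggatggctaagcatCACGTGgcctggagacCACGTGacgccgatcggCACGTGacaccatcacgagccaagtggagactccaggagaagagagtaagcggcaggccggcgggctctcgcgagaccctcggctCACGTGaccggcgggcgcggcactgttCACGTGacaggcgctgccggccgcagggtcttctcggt
Ctsd: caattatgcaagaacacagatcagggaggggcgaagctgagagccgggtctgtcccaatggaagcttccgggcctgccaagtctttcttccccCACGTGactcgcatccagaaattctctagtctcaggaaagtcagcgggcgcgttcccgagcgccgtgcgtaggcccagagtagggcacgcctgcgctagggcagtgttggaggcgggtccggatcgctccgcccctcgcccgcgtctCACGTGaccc
Ctss: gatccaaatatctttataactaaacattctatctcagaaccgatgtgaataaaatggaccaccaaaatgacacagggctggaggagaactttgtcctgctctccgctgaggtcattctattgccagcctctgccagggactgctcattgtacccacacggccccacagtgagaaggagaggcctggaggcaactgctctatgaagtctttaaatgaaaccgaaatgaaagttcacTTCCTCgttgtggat

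The purine box GAGGAA is common, in 23.3% of the promoters on either strand and in 6 of the 9 genes (Ctsc, Ctsh, Ctsk, Ctss, Ctsz and Lamp2). This motif was chosen with the sequences in view. A match describes the letters of a window and shows no binding.

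The arrays of the control rats were dimmer than those of the treated rats. Between 16.5% and 32.9% of spots were well above background on the control arrays, and between 36.1% and 46.6% on the DEN/TAA arrays. Signals are therefore given as a scaled log2 signal, the log2 intensity minus that array's 75th percentile over the 6229 probes that were above background on all 10 arrays. A value of 0 is a spot at that percentile. The level of a probe depends on the probe, so levels are compared between rats and never between genes. Of the 10 genes, 8 were above background on every array. In control, 4 of 5 arrays detected Ctsz and 1 of 5 detected Ctsk, and all 5 DEN/TAA arrays detected both.

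Ctss, Ctsz, Ctsk, Ctsl and Ctsd were higher in DEN/TAA liver, Ctsh was lower, and the other 4 genes did not pass the test. In log2 difference (DEN/TAA minus control) the order ran from Ctss, Ctsz and Ctsk through Ctsl and Ctsd, then Lamp1, Ctsb, Lamp2 and Ctsc, to Ctsh. Of the 10 genes 5 were called higher and 1 lower by limma at an adjusted p below 0.05, where 39.2% of the 6850 genes tested were called higher, 16.3% lower and 55.5% in either direction. The groups did not overlap for 6 of the 10, against 39.4% of all genes, and lay apart with DEN/TAA higher for 5, against 28.1%. A call with a rise of at least 1 on the log2 scale was made for 4 of the 10 (Ctss, Ctsz, Ctsk and Ctsl), against 21.2% of all genes. Ctsk passed the filter on dim probes through the DEN/TAA arrays, so its place in these counts depended on the group where it is high. The median difference was 0.33 over the 10 genes and 0.33 over all genes tested, so in the reported scaling the set's median was that of the array. Some other processing moved them apart. They were 0.026 and -0.28 with normexp, another background correction, and 0.47 and 0.18 with quantile normalisation. The authors' deposited table gave 0.30 and 0.082. With only genes above background on all 10 arrays, 8 of the set among them, they were -0.025 and 0.10. In the reported scaling the differences within the set ran from -1.25 to 1.89.

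**Figure D1:**
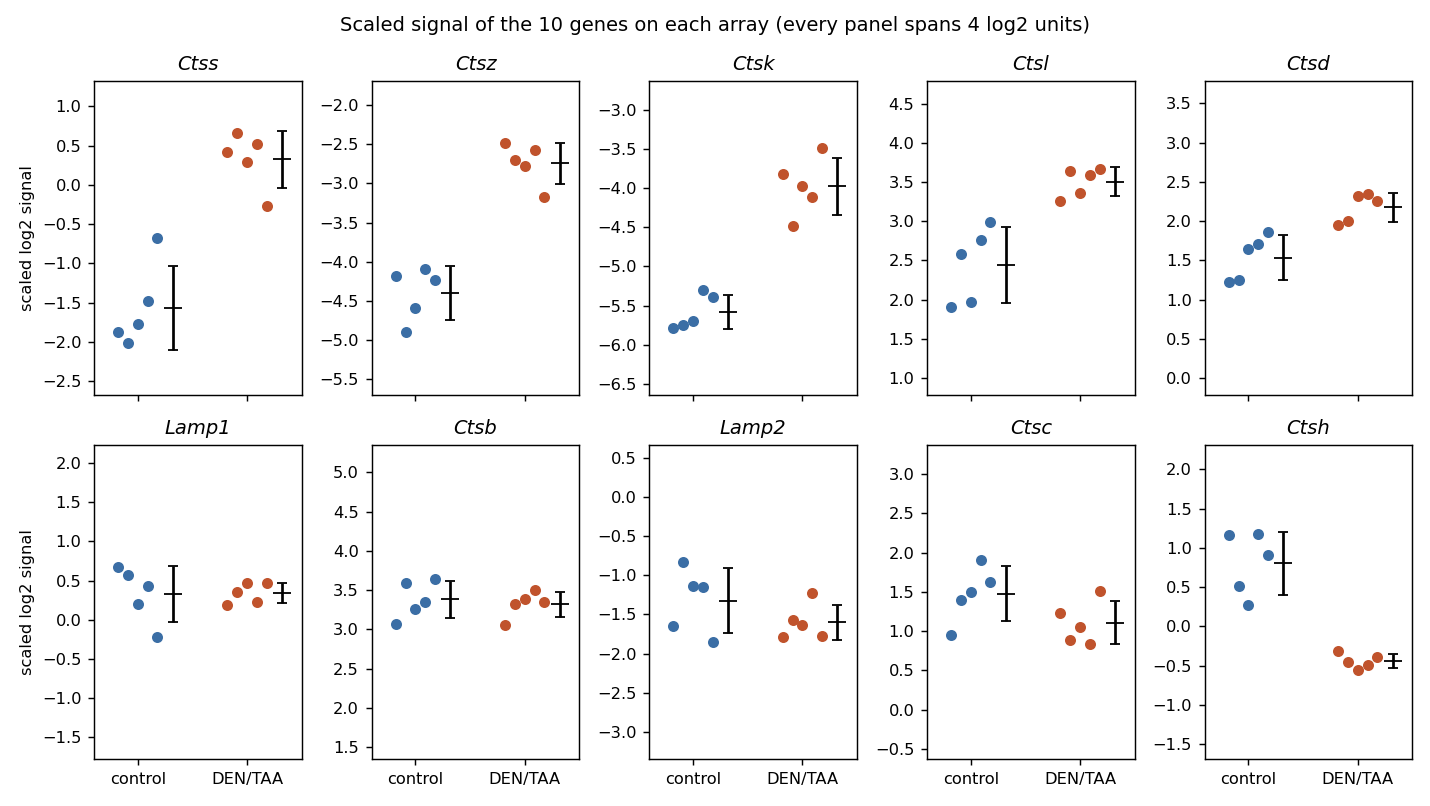
Scaled log2 signal (vertical axis) of the 10 genes on each array. Blue points are the 5 control rats and orange points the 5 DEN/TAA rats, with the mean and SD beside each group, and every panel spans 4 log2 units. Ctss, Ctsz, Ctsk, Ctsl and Ctsd sit higher in DEN/TAA without overlap, Ctsh sits lower without overlap, and Lamp1, Ctsb, Lamp2 and Ctsc overlap.

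Ctss, which trims the invariant chain from class II molecules in antigen-presenting cells, rose the most. Its scaled log2 signal was -1.88, -2.02, -1.78, -1.48 and -0.68 in control replicates 1 to 5 and 0.42, 0.66, 0.29, 0.52 and -0.28 in DEN/TAA replicates 1 to 5. Control replicate 5 and DEN/TAA replicate 5 lay nearest each other, and the groups did not overlap. The log2 difference was 1.89 (SE 0.27), or 3.71-fold (limma adjusted p = 0.000115). The other probe of Ctss gave a log2 difference of 1.86 (SE 0.28). By slide, which held 3 or 4 arrays each, the log2 difference was 2.49 on slide 1 and 2.18 on slide 2, and 0.81 on slide 3, which held both replicates 5 and control replicate 4.

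Ctsz and Ctsk rose about as much from signals near background. Ctsz, a carboxypeptidase also called cathepsin X, was at -4.18, -4.90, -4.59, -4.09 and -4.23 in control and at -2.49, -2.70, -2.78, -2.58 and -3.17 in DEN/TAA. Every treated rat was above every control rat, by a log2 difference of 1.65 (SE 0.20), or 3.14-fold (limma adjusted p = 3.66e-05). Its log2 difference was 1.94, 1.91 and 0.99 within slides 1, 2 and 3. It lost its call with normexp, another background correction (log2 difference 0.62, adjusted p = 0.0782), and the log2 difference was 0.70 in the authors' deposited table.

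Ctsk, a collagen-cutting cathepsin known from osteoclasts and also made by fibroblasts and macrophages, is the least certain. Its scaled log2 signal was -5.78, -5.75, -5.69, -5.30 and -5.39 in control and -3.82, -4.49, -3.97, -4.12 and -3.49 in DEN/TAA. The groups lay apart, at a log2 difference of 1.60 (SE 0.20), or 3.04-fold (limma adjusted p = 4.33e-05), and 1.61, 1.65 and 1.85 within the slides. Its unscaled intensity was only 18.3 to 59.1 on the control arrays, against 179.7 to 550.4 on the treated ones. With the 4 control arrays that did not detect it raised to the lowest detectable signal, the log2 difference was 0.96 (adjusted p = 0.0352). With normexp it was -0.017 (adjusted p = 0.969), so the call of Ctsk depended on how signal near background was handled.

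Ctsl and Ctsd rose less and from strong signals. Ctsl, a cysteine endopeptidase that hepatocytes make in quantity, was at 1.90, 2.59, 1.97, 2.75 and 2.99 in control and at 3.25, 3.64, 3.36, 3.59 and 3.67 in DEN/TAA. The treated rats lay closer together, and the lowest of them stood above the highest control. Ctsl rose 2.08-fold, a log2 difference of 1.06 with an SE of 0.22 (limma adjusted p = 0.00192), and the other probe of Ctsl gave 1.13 (SE 0.24).

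Ctsd, the main aspartic protease of lysosomes, was at 1.22, 1.25, 1.64, 1.70 and 1.86 in control and at 1.95, 2.01, 2.31, 2.35 and 2.25 in DEN/TAA. The highest control and the lowest treated rat lay close, without overlap. Ctsd rose 1.56-fold, a log2 difference of 0.64 with an SE of 0.17 (limma adjusted p = 0.00749), with 0.75, 0.69 and 0.47 within the slides. It lost its call when the percentile was taken over all probes (log2 difference 0.34, adjusted p = 0.149).

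Ctsh, an aminopeptidase of lysosomes, went the other way. It was at 1.17, 0.51, 0.28, 1.18 and 0.91 in control and at -0.31, -0.45, -0.56, -0.49 and -0.40 in DEN/TAA. All treated rats were below all control rats and lay within a narrow band, with an SD of 0.091 against 0.40 in control. The log2 difference was -1.25 (SE 0.19), 2.38-fold lower (limma adjusted p = 0.000217), and -1.22, -0.80 and -1.44 within the slides. With spike-in scaling, which sets the arrays by RNA added in equal amount, it was -0.59 and lost its call (adjusted p = 0.0776).

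Ctsb and Ctsc, and both membrane proteins, overlapped between the groups. Ctsb, one of the most abundant lysosomal cysteine proteases of liver, was at 3.07, 3.59, 3.26, 3.35 and 3.64 in control and at 3.06, 3.32, 3.38, 3.50 and 3.34 in DEN/TAA. The log2 difference was -0.059, with a 95% interval from -0.40 to 0.28 (limma adjusted p = 0.768). That interval leaves out the point estimates of the 5 cathepsins that rose, but overlaps the 95% interval of Ctsd, 0.27 to 1.01. Whether Ctsb differed from Ctsd in its change was not tested. With spike-in scaling Ctsb was called higher, at 0.60 (adjusted p = 0.0224), while the median of all genes was then 0.99.

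Ctsc, the dipeptidyl peptidase that activates granule proteases of neutrophils and other blood cells, was at 0.95, 1.40, 1.49, 1.90 and 1.63 in control and at 1.23, 0.89, 1.06, 0.84 and 1.51 in DEN/TAA. Ctsc had a log2 difference of -0.37, with a 95% interval from -0.81 to 0.069 (limma adjusted p = 0.138). Control replicate 1 was the lowest control, and without it Ctsc was called lower, at -0.50 (adjusted p = 0.0366). It was also called lower with the percentile over all probes, at -0.68 (adjusted p = 0.0286).

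Lamp1 was at 0.68, 0.57, 0.20, 0.43 and -0.22 in control and at 0.19, 0.36, 0.47, 0.23 and 0.47 in DEN/TAA. Lamp1 had a log2 difference of 0.0092, with a 95% interval from -0.39 to 0.41 (limma adjusted p = 0.968). It changed sign between slides, at -0.35, 0.14 and 0.37. Lamp2, the membrane protein that also takes part in chaperone-mediated autophagy, was at -1.65, -0.84, -1.13, -1.15 and -1.85 in control and at -1.79, -1.57, -1.64, -1.23 and -1.78 in DEN/TAA. Lamp2 had a log2 difference of -0.28, with a 95% interval from -0.74 to 0.18 (limma adjusted p = 0.279). Without the 2 dimmest control arrays, replicates 1 and 5, Lamp2 was called lower, at -0.56 (adjusted p = 0.0212), and in the authors' deposited table at -0.36 (adjusted p = 0.0474).

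**Figure D2:**
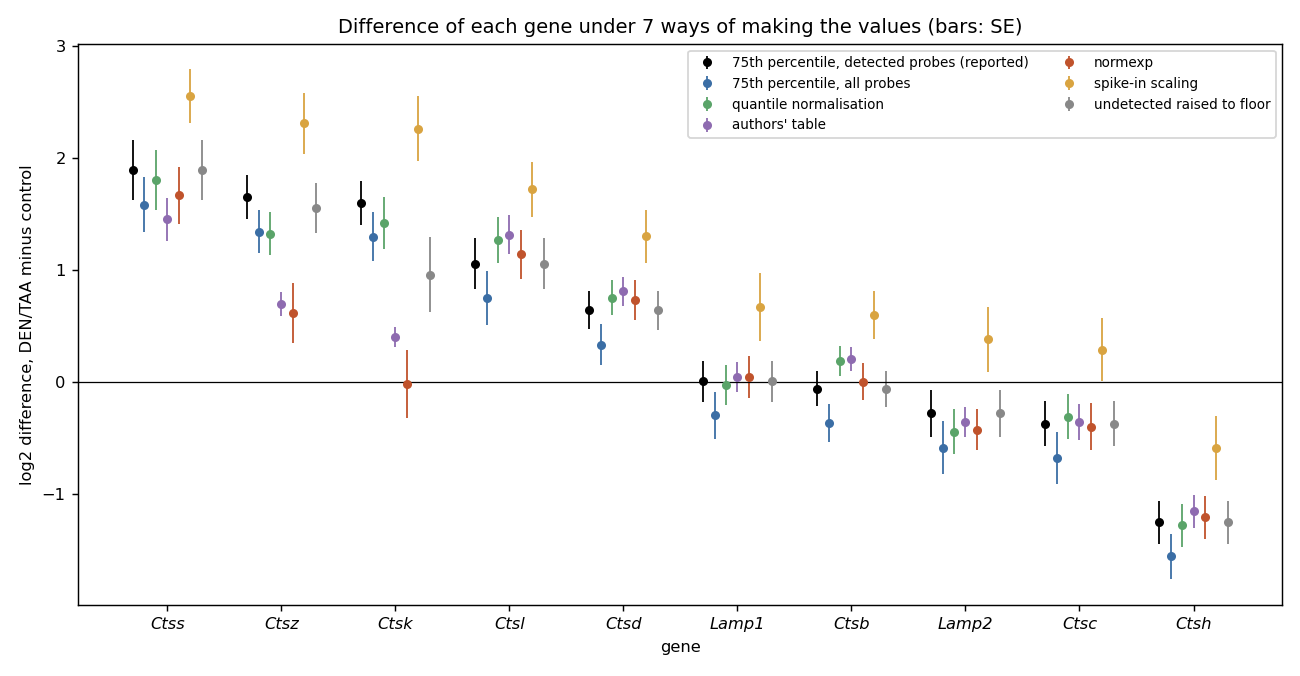
Log2 difference (DEN/TAA minus control, vertical axis) of each gene (horizontal axis) under 7 ways of making the values, one colour each, with SE bars. Ctss, Ctsz, Ctsl and Ctsd lie above 0 and Ctsh below 0 under all 7. Ctsk runs from -0.017 with normexp to 2.26 with spike-in scaling, and Lamp1, Ctsb and Ctsc lie on both sides of 0, as does Lamp2 with spike-in scaling.

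Because the scaling moved the whole array, each gene was also set against Lamp1 on the same array, a ratio on which no scaling by a constant has any effect. Against Lamp1, Ctsz was higher in DEN/TAA by 1.64, Ctsk by 1.59 and Ctss by 1.88 on the log2 scale, and Ctsh was lower, at -1.26. These 4 passed a two-sided exact permutation test over the 252 assignments of 5 rats to a group, adjusted over the 9 ratios (adjusted p = 0.0238 for Ctsz, Ctsk and Ctsh and 0.0357 for Ctss). The unadjusted p was 0.00794 for the first 3 of these, the smallest the design allows. Ctss lost its call in 4 of the fits that left out 1 rat (exact permutation test, highest adjusted p = 0.0536). Ctsl and Ctsd, at 1.05 and 0.63, missed the threshold in this exact permutation test (adjusted p = 0.0571 and 0.0952), and without control replicate 5 both passed, at 1.33 and 0.85 (adjusted p = 0.0119). That array had the lowest Lamp1 signal and the fewest spots above background. Ctsb, Ctsc and Lamp2 gave ratios of -0.069, -0.38 and -0.29 (exact permutation test, adjusted p from 0.265 to 0.738). With normexp the ratio of Ctsk to Lamp1 was -0.064 and that of Ctsz 0.57, neither past the threshold. A ratio to Lamp1 shows unequal change and does not show that Lamp1 itself held still.

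**Figure D3:**
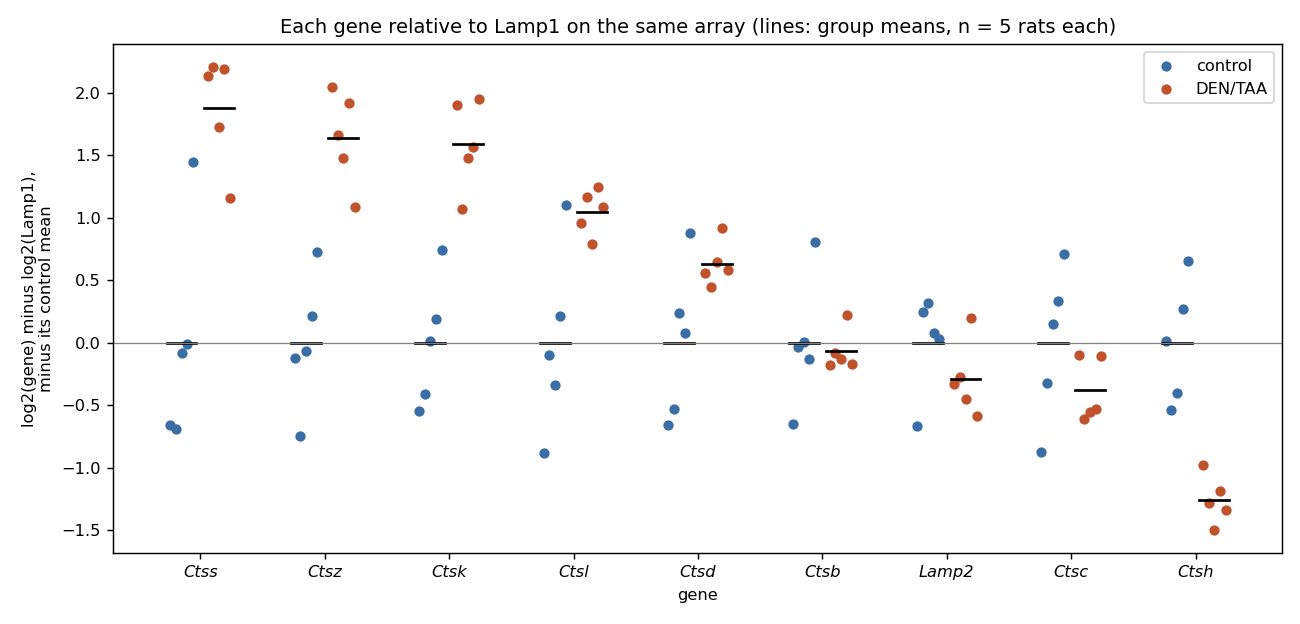
Log2 signal of each gene minus that of Lamp1 on the same array (vertical axis, with the control mean of each ratio set to 0), for 5 control rats in blue and 5 DEN/TAA rats in orange, with lines at the group means. The means of Ctss, Ctsz and Ctsk lie 1.59 to 1.88 higher in DEN/TAA and that of Ctsh at -1.26, and 1 control rat, replicate 5, lies high for most genes.

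Markers of cells other than hepatocytes moved in the same livers. Over all genes tested, 39.2% were called higher and 16.3% lower, with a median log2 difference of 0.33. Of 8 recruited macrophage markers 5 were tested, and all 5 were called higher. Trem2, Gpnmb and Spp1 were undetected in control and passed the filter through the treated arrays alone. Such a filter favours a higher call, so the count says little about the list. Of the 2 detected on every control array, Lgals3, galectin-3, rose by 3.65 on the log2 scale and Fabp5, named after its value was seen, by 1.43. Trem2, a receptor for lipids on macrophages, was higher by at least 5.33-fold in the reported scaling. Its log2 difference was 2.36 with normexp and 1.69 in the authors' deposited table. The log2 of the summed scaled signal of the 5 markers was -0.32 to 1.57 in control and 2.65 to 3.40 in DEN/TAA. Cd9, Itgam and Ccr2 had no tested probe. Of 8 Kupffer cell markers 7 were called higher and none lower, with a median of 1.56, among them Folr2 at 2.18 and C1qb at 1.54. Cd163, also among the 7 and named after its values were seen, was undetected in control and passed the filter through the treated arrays alone. Its groups overlapped, and its difference was -0.23 with undetected arrays raised to the lowest detectable signal. Clec4f, called higher, and Marco, not called, were also named after their values were seen. Both stood at 0.69 with overlapping groups. Marco was detected on 2 of 5 control arrays and stood at -0.12 with undetected arrays raised in that way. Vsig4, called higher, was likewise detected on 2 of 5. The summed level of the 8 markers was 1.91 to 2.96 in control and 3.15 to 4.07 in DEN/TAA. Of 8 stellate cell and myofibroblast markers 7 were called higher, with a median of 2.49, among them Dcn, decorin, at 4.34 and Col1a2 at 2.89. Dcn was detected on 2 of 5 control arrays and gave 2.04 with normexp and 1.85 in the authors' deposited table, still called higher. Tagln and Des, also called higher and named after their values were seen, were detected on 1 and 2 of 5 control arrays. Dcn, Tagln and Des needed the treated arrays to pass the filter, so the count of this list carries the same limit. The summed level of the 8 markers was -0.78 to -0.44 in control and 1.74 to 2.27 in DEN/TAA. The Kupffer and stellate medians kept their sign under all 6 scalings, with 5 to 8 and 4 to 8 markers called higher. With normexp 1 Kupffer marker was called lower. The part of these cells in the cathepsin values was not tested, and in whole liver RNA more cells of a type and more RNA per cell cannot be told apart.

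The other cell lists were smaller here, beside the same 39.2% of all genes called higher and 16.3% lower. Of 5 biliary markers 3 were tested and called higher. Krt19, a bile duct keratin, and Spp1, also counted above, were undetected in control and could pass the filter through the treated arrays only. Krt19 was at least 9.93-fold higher in the reported scaling, with log2 differences of 2.16 with normexp and 1.90 in the authors' deposited table. Epcam, detected on 4 of 5 control arrays, rose by 2.67 on the log2 scale. Of 5 endothelial markers 2 were tested, and Lyve1 was called higher, at 1.20, a call lost with normexp (0.62, limma adjusted p = 0.0567). Of 6 lymphocyte markers 2 were tested and both, Zap70 and Cd3g, were undetected in control and at least 1.22-fold and 1.43-fold higher, with log2 differences of -0.28 for both under normexp. Neither was called with undetected arrays raised to the lowest detectable signal. Of the 6 hepatocyte plasma proteins 5 were called lower, including Ttr at -2.03 and Serpina1 at -1.13. The count fell to 1 with quantile normalisation and with spike-in scaling and to 2 in the authors' deposited table, and Serpina1 was at -0.23 and -0.47 in the first and second of these, without a call. The list's median of -0.90 moved to 0.045 with quantile normalisation.

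Among genes above background on all arrays, the pattern between rats within the groups was compared for each of the 8 cathepsin and membrane genes so measured. The measure was Pearson's r between deviations from the group means over the 10 arrays, a description over 3546 candidate genes with scaling and array brightness in common. The closest gene to Ctss was Cd68, a lysosomal membrane protein of macrophages, at r = 0.942. Cd68 was at -1.80, -2.00, -1.72, -1.75 and -0.96 in control and at 0.19, 0.68, 0.32, 0.39 and -0.038 in DEN/TAA. As with Ctss, control replicate 5 was the highest control and DEN/TAA replicate 5 the lowest treated rat. Cd68 rose by 1.95 on the log2 scale (SE 0.21, limma adjusted p = 1.91e-05).

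The closest gene to Ctsc was Cpq, a secreted and lysosomal carboxypeptidase, at r = 0.977, and Cpq fell, with a log2 difference of -1.55 (SE 0.26, limma adjusted p = 0.000400). For the others the closest genes were Cnppd1 for Ctsb (r = 0.925), Eif4ebp3 for Ctsd (r = 0.983), Rnf187 for Ctsh (r = 0.953), Rdx for Ctsl (r = 0.971), the acute phase protein Crp for Lamp1 (r = 0.912) and Rnaseh1 for Lamp2 (r = 0.834). Of these 6, Crp passed the test between the groups, with a log2 difference of -2.56 (limma adjusted p = 2.68e-05). Eif4ebp3 missed it, at -0.66 (limma adjusted p = 0.0525), and was called lower with the slide as a block (-0.63, adjusted p = 0.00914), with the replicate number as a block (adjusted p = 0.0185), in all under 10 of 23 alternatives.

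Other lysosomal genes were counted by class, where 39.2% of all genes were called higher and 16.3% lower. Of 14 other lysosomal peptidases 10 were tested, and 5 were called higher and 2 lower, with a median log2 difference of 0.53 against 0.33 for all genes. Lgmn, the asparaginyl endopeptidase that processes several cathepsins, was at -2.71, -3.19, -3.21, -2.35 and -2.92 in control and at 0.12, -0.35, 0.018, 0.13 and -0.22 in DEN/TAA. Its groups lay far apart, by 2.82 (SE 0.19, limma adjusted p = 9.27e-07), more than any of the 8 cathepsins. Dpp7, a dipeptidyl peptidase, rose by 2.96 from a signal that 1 of 5 control arrays detected. Dpp7 was at 1.01 with normexp and 0.98 in the authors' deposited table, and was called higher in both. Cpq fell, as above. Ctsa, the protective protein of the galactosidase complex, was called lower at -0.43, a call lost without control replicate 5 (-0.35) or without DEN/TAA replicate 1, 2 or 5 (-0.38, -0.43 and -0.41). The call was also lost with normexp (-0.34), quantile normalisation (-0.27) and the authors' deposited table (-0.17). It was lost too without the filter on dim probes and with the replicate number as a block. It was kept with the percentile over all probes (-0.74). With spike-in scaling Ctsa stood at 0.23. Ctse, an aspartic protease of endosomes singled out after its values were seen, was undetected in control and at least 16.3-fold higher.

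The list of cathepsin inhibitors moved in both directions. It is broad and holds relatives of such inhibitors, and action on the 8 cathepsins was not examined. The 2 genes called lower were Ahsg and Serpina3n, not the cystatins Cst3 and Cstb. Kng1 and Kng2, named after their values were seen, were not called, at -0.17 and -0.28. Of 13 listed 7 were tested, 3 called higher and 2 lower. Among the 3, Serpinb9, named after its values were seen, was undetected in control and passed the filter through the treated arrays alone. Its groups overlapped. Cst3, cystatin C, the secreted inhibitor of cysteine cathepsins, was at 1.23, 1.44, 1.08, 0.89 and 1.13 in control and at 2.48, 2.73, 2.80, 2.57 and 2.60 in DEN/TAA. It rose by 1.48 (SE 0.14, limma adjusted p = 8.66e-06). Cstb, the inhibitor of the cytosol, rose by 0.91 (adjusted p = 0.000302 by limma). Ahsg, a plasma protein of the cystatin superfamily made by hepatocytes, fell by 1.78 on the log2 scale (limma adjusted p = 2.13e-05). Serpina3n was called lower at -0.68, but gave 0.24 with quantile normalisation.

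Of 42 glycosidases, sulfatases and lipid hydrolases of the lysosome 26 were tested, 7 called higher and 3 lower, with a median of 0.10. The balance turned with the scaling, to 3 higher and 8 lower with all probes in the percentile, 4 and 6 in the authors' deposited table, and 15 and 0 with spike-in scaling. Acp5, the tartrate-resistant acid phosphatase of macrophages and osteoclasts, rose by 2.20, and Asah1, acid ceramidase, by 2.23. Asah1 was detected on 2 of 5 control arrays, and with normexp it stood at 0.29 and was not called. Neu1, which removes sialic acid from glycoconjugates, was lower at -0.68 and not called with spike-in scaling.

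Of 30 other lysosomal membrane and associated proteins 19 were tested, 7 called higher and 4 lower, with a median of -0.026. Among the 7, Laptm4b and Slc11a1, named after their values were seen, were undetected in control and passed the filter through the treated arrays alone. Here too the balance turned, to 3 higher and 7 lower with normexp, 6 and 8 with all probes in the percentile, 7 and 8 with quantile normalisation, and 9 and 0 with spike-in scaling. Besides Cd68, Laptm5, a membrane protein of blood cells, rose by 1.71. The sialomucin Cd164 and the cholesterol exporter Npc1 were lower, at -1.24 and -1.04, both without a call under spike-in scaling.

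Counts for the machinery around the lysosome moved with the scaling. Of 14 subunits of the vacuolar ATPase, which acidifies lysosomes, 5 were called higher and 2 lower, with a median of 0.32, and between 1 and 11 were called higher under the 6 scalings. Atp6v1d rose by 2.22, or 1.06 with normexp and 1.09 in the authors' deposited table. Atp6ap1 was higher by 0.64, without a call when the percentile was taken over all probes (0.33, limma adjusted p = 0.113), while Atp6v0d1 and Atp6v0a1 were lower, at -0.82 and -0.93, neither called with spike-in scaling. Control replicate 1 lay far above the other controls for Atp6v0a1. Of 23 genes that sort proteins to lysosomes 9 were called higher and none lower, close to the share of all genes called higher, with a median of 0.39. Among the 9, Sort1, named after its values were seen, was undetected in control and passed the filter through the treated arrays alone. Normexp gave 4 higher and 8 lower, all probes in the percentile 4 and 2, quantile normalisation 6 and 2, and spike-in scaling 17 and 0. Igf2r, the large mannose 6-phosphate receptor that carries new cathepsins to lysosomes, rose by 1.38 (SE 0.18, limma adjusted p = 8.08e-05), with 1.66, 1.59 and 0.74 within the slides. Vps26a, of the retromer that returns such receptors, rose by 1.04. Of 18 autophagy and TFEB family genes tested 3 were called higher and 1 lower, with a median of 0.27, and between 1 and 15 were called higher under the 6 scalings. Map1lc3a, a protein of the autophagosome membrane, was higher by 0.78, without a call when the percentile was taken over all probes (0.48, limma adjusted p = 0.0621). Atg12 was undetected in control and at least 1.25-fold higher, but gave -0.73 with normexp and lost its call with undetected arrays raised to the lowest detectable signal. Its lower gene was Gabarapl2, at -0.70 with overlapping groups, and Map1lc3b was higher at 0.43, both named after their values were seen. Tfeb, Tfe3, Mitf and Tfec had no tested probe.

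Of the 8 lists of lysosomal and antigen-processing genes, the one in which Ctss works had the largest median. Of 8 genes of class II antigen presentation tested 7 were called higher and none lower, with a median of 2.74, and 7 or 8 were called higher under each of 6 scalings. RT1-DMa, a chaperone subunit that loads peptide onto class II molecules, rose by 2.84 (SE 0.30, limma adjusted p = 1.67e-05). Lgmn is in this list too. RT1-Db2, among the 7 and named after its values were seen, was detected on 1 of 5 control arrays.

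**Figure D4:**
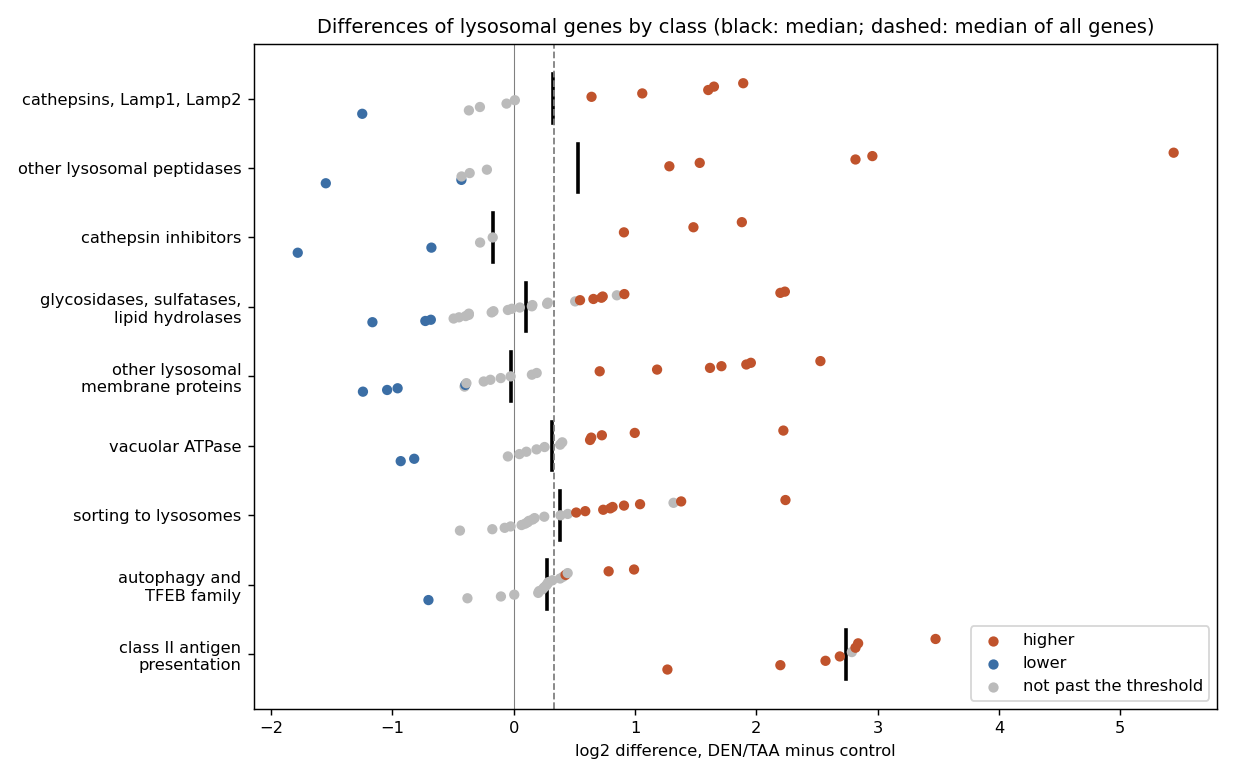
Log2 difference (DEN/TAA minus control, horizontal axis) of each tested gene by class (vertical axis). Orange points passed the test as higher, blue as lower and grey did not pass, black bars are class medians and the dashed line is the median of all genes, 0.33. Most classes spread to both sides with medians between -0.17 and 0.53, and class II antigen presentation lies to the right with a median of 2.74.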

How the data were processed

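Liver RNA (150 ng) was labelled with Cy3 and hybridised to Agilent whole rat genome 4x44K arrays, per the labels. The deposited scanner files hold spot intensity, background-subtracted but not scaled between arrays, read by Agilent's Feature Extraction software, version 11.5.1.1 per the file headers and 15.5 per the submitters' processing notes. The authors' table holds log2 values whose rank order was that of the raw median signal (Spearman's rho of 1 on each array) with column medians near 8.59. It thus has no background subtraction spot by spot, while a constant subtracted from a whole array would leave that order unchanged. Its other steps are not given in the sources used here. Control and outlier spots were left out, and log2 processed intensities were averaged per probe, minus the array's 75th percentile. Of 41012 probes 17493 had 1 gene symbol through RefSeq, 0 several and 23519 none. A probe was tested when above background on at least 5 of 10 arrays, and a gene was read by its brightest such probe.

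Groups were compared with limma 3.58.1 in R 4.3.3 (two-sided, Benjamini-Hochberg over 6850 genes, threshold 0.05, no covariates), tested on simulated data. The labels number the rats without saying that equal numbers share anything. Deviations of same-numbered rats correlated at -0.184 to 0.253, so numbers were not taken as pairs. The arrays lay on 3 slides, each scanned once and holding both groups. Precision is limited by 5 arrays a group. A gene undetected in a group is given as at least N-fold, against the higher of its signal and the lowest detected signal per array. That bound holds for the reported scaling, and other processing can give less.

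Named genes are the 10 genes, up to 2 per list and direction with the smallest adjusted p and no overlap, and the gene closest to each in pattern; 1 gene this rule names is not reported here. Members and lists were chosen with earlier results of these data known. Alternatives were other scalings and filters, normexp (offset 50 on the median signal, as the files hold no mean), the authors' table, blocks, a trended prior and leaving out arrays. Raising undetected arrays to the lowest detected signal was added after the data were seen.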

Additional observations from a re-analysis of the deposited data

Results flagged for a closer look

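Of 108 groups of 5 values examined, 6 held 1 array far from the other 4 by Dixon's test at 95%, and chance gives about 1 in 20. Among macrophage genes, control replicate 5 was high for Cd68, at -0.96 against -2.00 to -1.72 in the other controls, and for C1qb, at 1.42 against 0.60 to 0.73. Ctss, whose control replicate 5 was also the highest control at -0.68, did not pass that test. DEN/TAA replicate 4 was low for Ahsg, at 3.09 against 3.88 to 4.16, and DEN/TAA replicate 1 was low for Cnppd1, at -0.47 against -0.14 to -0.01. Control replicate 1 was high for Serpina3n, at 6.02 against 5.32 to 5.50, and for Atp6v0a1, at -2.81 against -4.22 to -3.92.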

How the results depend on the processing

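Over all genes, 2688 were called higher and 1115 lower. With all probes in the percentile 1615 were called higher, and the filter on all 10 arrays, which tests fewer genes, gave 1152. Normexp gave 882 higher and 1946 lower, spike-in scaling 4449 and 395, and no filter 5799 lower; the cause was not tested. Higher genes made up 70.7% of calls, and 50.3%, 31.2%, 58.9%, 91.8% and 60.8% with all probes, normexp, quantile normalisation, spike-in scaling and the authors' table. Among the 10 genes, 5 were called higher and 1 lower. Normexp left 3 higher, as did the filter on all 10 arrays, which tests 8 of them. The count of lower genes was 2 with the percentile over all probes, in the authors' table and without the 2 dimmest control arrays, and 0 with spike-in scaling. Leaving out 1 rat kept 5 higher and gave 1 to 2 lower.

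Reversed single values were Ctsk with normexp (-0.017); Atg12 with normexp, quantile normalisation and the authors' table (-0.73, -0.55 and -0.034); Zap70 and Cd3g with normexp (both -0.28); Serpina3n with quantile normalisation (0.24); and Ctsa with spike-in scaling (0.23). Against Lamp1, normexp gave Ctsk -0.064, Ctsz 0.57 and Ctsl 1.10, which then passed, and the authors' table gave Ctsk 0.36, without a call, and Ctsd 0.76 and Ctsl 1.27, both called. Leaving out 1 rat gave 0.47 to 0.85 for Ctsd, 0.83 to 1.33 for Ctsl and 1.71 to 2.24 for Ctss relative to Lamp1. Ctss lost its call there without DEN/TAA replicate 1, 2, 3 or 4 (adjusted p = 0.0536 by exact permutation). The replicate block gave 2684 genes higher and 1120 lower and the same counts among the 10 genes, 5 and 1; 3 of 5 control rats correlated best with their own number. Dim control arrays limit what can be read of Ctsk and Ctsz.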
